A study of Mus musculus with 15 samples.

Results

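The 10 genes described here encode nuclear receptors that sense foreign compounds, lipids or steroids: Nr1i2 (the pregnane X receptor, PXR), Nr1i3 (the constitutive androstane receptor, CAR), Rxra and Rxrb (retinoid X receptors), Ppara and Ppard (peroxisome proliferator-activated receptors), Nr1h2 and Nr1h3 (liver X receptors, LXR), Nr3c1 (the glucocorticoid receptor, GR) and Hnf4a. They were chosen by name, and every probe whose RefSeq name belongs to one of them was taken, which gave 19 of the 56605 probes on the array. With 1 probe a gene they are 10 of the 34401 features that were tested, called genes here. The RNA was from whole lung of 15 females of the outbred stock Crlj:CD1(ICR), whose age is given as 11 weeks. Permethrin, a pyrethroid insecticide, was mixed into powdered diet at 20, 500, 2500 or 5000 ppm for 7 days, the control diet held 0 ppm, and each diet had 3 mice with 1 array each. The labels call the mice of a diet biological replicates and name no other treatment. Whole lung was labelled with 1 dye (Cy3), and the airway and alveolar genes Sftpc, Scgb1a1, Ager, Marco and Chil3 were well above background on all 15 arrays.

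Nuclear receptors are transcription factors that bind small lipophilic molecules. CAR, PXR, the PPARs and the LXRs bind DNA as pairs with a retinoid X receptor, whereas HNF4A binds as a pair with itself, and the glucocorticoid receptor waits in the cytosol with heat shock proteins until a steroid reaches it. In liver, CAR and PXR switch on cytochrome P450 genes after exposure to drugs and pesticides, pyrethroids among them, and in lung the glucocorticoid receptor and the LXRs are known for their roles in inflammation and in lipid handling by macrophages.

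The stretch upstream of a gene's start is one place where such receptors bind, and it is shown for the genes on which the results below turn. The promoters are from RefSeq on the GRCm38.p6 build, 250 bases upstream of a start, read 5′ to 3′ on the strand of the gene, with capitals for a match to 1 of 3 motifs on either strand. The motifs were the core nuclear receptor motif AGGTCA, the GC box GGGCGG and the TATA box TATAAA, which 14%, 32.7% and 12.4% of all 32851 promoters of this length held. The sensors CAR and PXR come first, then the partner RXR at the start that held core motifs, then the lipid sensors with the largest differences.
Nr1i2, chr16:38294825-38295074, minus strand: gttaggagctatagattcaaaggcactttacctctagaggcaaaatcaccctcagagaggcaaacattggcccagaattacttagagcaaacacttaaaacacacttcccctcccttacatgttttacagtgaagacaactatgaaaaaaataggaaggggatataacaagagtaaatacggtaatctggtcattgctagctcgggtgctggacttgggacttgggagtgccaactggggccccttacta
Nr1i3, chr1:171213720-171213969, plus strand: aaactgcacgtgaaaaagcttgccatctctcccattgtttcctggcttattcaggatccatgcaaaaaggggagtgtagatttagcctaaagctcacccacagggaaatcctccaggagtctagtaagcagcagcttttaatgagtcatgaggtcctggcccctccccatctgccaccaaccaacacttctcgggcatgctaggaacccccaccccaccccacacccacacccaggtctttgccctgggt
Rxra, second start, chr2:27709042-27709291, plus strand: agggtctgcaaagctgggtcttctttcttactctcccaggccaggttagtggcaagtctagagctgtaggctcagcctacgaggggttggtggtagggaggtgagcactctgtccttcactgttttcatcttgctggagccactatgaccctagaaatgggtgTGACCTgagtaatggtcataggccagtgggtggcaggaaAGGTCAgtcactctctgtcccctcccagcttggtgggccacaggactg
Ppara, chr15:85735526-85735775, plus strand: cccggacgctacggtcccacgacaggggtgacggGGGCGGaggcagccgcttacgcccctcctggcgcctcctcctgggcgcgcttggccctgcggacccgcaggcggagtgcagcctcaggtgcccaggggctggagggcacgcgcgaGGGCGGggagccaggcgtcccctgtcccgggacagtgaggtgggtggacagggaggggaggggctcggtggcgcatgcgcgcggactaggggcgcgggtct
Nr1h3, chr2:91195036-91195285, minus strand: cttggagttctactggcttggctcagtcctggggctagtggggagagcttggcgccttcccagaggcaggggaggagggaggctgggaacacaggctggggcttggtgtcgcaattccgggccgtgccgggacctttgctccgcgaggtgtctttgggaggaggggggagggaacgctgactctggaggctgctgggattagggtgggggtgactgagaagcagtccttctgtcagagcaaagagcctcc
The promoters differed most in CG pairs, of which the median promoter held 6 with quartiles at 2 and 16. Nr1i2 and Nr1i3 held 2 each, Nr1h3 held 8, and Ppara held 27 with 2 GC boxes. Rxra held 40 CG pairs and 3 GC boxes at its first start but 1 CG pair and 2 core motifs, beginning 87 and 48 bases before the start, at its second. Ppard (22 CG pairs, 3 GC boxes), Nr1h2 (13) and both starts of Rxrb (31 and 39) held more CG pairs than the median promoter, and both starts of Hnf4a (3 and 4) held fewer. Nr3c1 is named only. Core motifs were found in these windows at the second start of Rxra alone. A match describes letters and not binding.

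All 19 probes of the receptors passed the filter on dim probes, so no receptor was lost to it, and 14 of them were well above background on all 15 arrays. Nr1i2 and Ppard had 1 probe, Rxrb had 3 and the other 7 genes had 2. The arrays lay on 2 slides, with slide 1 holding control, 20 ppm and mice 1 and 2 of 500 ppm and slide 2 holding mouse 3 of 500 ppm, 2500 ppm and 5000 ppm. For 2500 and 5000 ppm against control, slide and diet cannot be told apart except through that 1 array. Across all genes 4 arrays stood apart. They were 500 ppm mouse 3 and 2500 ppm mouse 3 on the first principal component (36.48% of the variance), and control mouse 1 and 20 ppm mouse 1 on the second (17.93%). The file headers give 500 ppm mouse 3 and 2500 ppm mouse 3 an extraction status of 1, and the other arrays 0. In 500 ppm mouse 3 87.0% of the probes were well above background, the highest share of the series.

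None of the 10 receptor genes differed between diets past the threshold. In limma with Benjamini-Hochberg adjustment over all genes (threshold 0.05), 0 of 10 passed at 20, 500 and 2500 ppm and for 5000 against 2500 ppm, where 0.0% of all genes did. At 5000 ppm 0 of 10 passed against 0.0407% of all genes, on the trend over the 5 dose ranks 0 of 10 against 0.142%, and in the test for any difference among diets 0 of 10 against 0.0407%. Before adjustment 1 receptor had p under 0.05 at 2500 ppm (Ppara, against 8.49% of all genes), 1 at 5000 ppm (Nr1h3, 5.14%), 1 for any diet (Nr1h3, 5.35%) and 2 on the trend (Ppara and Nr1h3, 9.22%). At 20 ppm (1.48% of all genes), 500 ppm (2.84%) and 5000 against 2500 ppm (5.04%) no receptor did. Counts of 0 to 2 among 10 genes are near these shares. Counted instead by groups that did not overlap, 1 receptor lay above control at 20 ppm (Nr1h3, beside 1.5% of all genes) and 1 below (Nr1i3, 4.35%), and none did at 500 ppm (4.53% above, 2.16% below) or 2500 ppm (8.83% and 4.73%). At 5000 ppm 4 of 10 lay above control (Rxrb, Ppara, Nr1h2 and Nr1h3, beside 12.9%) and 0 below (4.99%), and against 2500 ppm 1 lay above (Rxrb, 8.15%) and 0 below (7.1%). The comparisons against control share the same 3 control arrays and are not independent of each other.

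**Figure D1:**
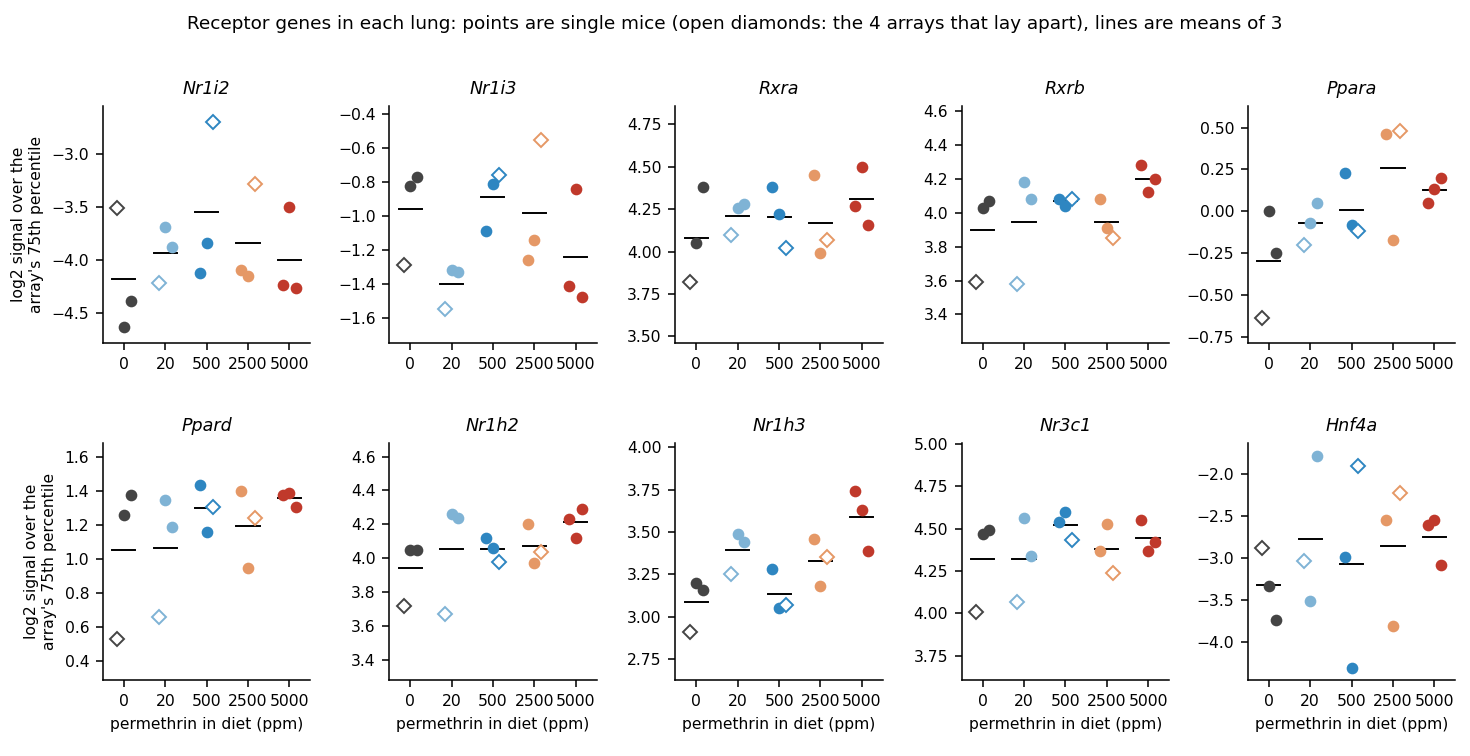
Level of each of the 10 receptor genes on every array, as log2 signal with the array's 75th percentile at 0 (vertical axis), by diet (horizontal axis), with 1 point a mouse, a bar for the diet mean, and open diamonds for the 4 arrays that stood apart. The Nr1h3 panel shows 3.39 to 3.74 at 5000 ppm above 2.91 to 3.20 in control, while the Nr1i2 and Nr1i3 panels show the 5000 ppm and control mice overlapping.

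The xenobiotic sensors themselves passed the threshold at no dose. Nr1i3 (CAR), on the log2 scale with the array's 75th percentile at 0, read -1.29, -0.82 and -0.77 in control mice 1, 2 and 3. It read -1.55, -1.32 and -1.33 at 20 ppm, -1.09, -0.81 and -0.76 at 500 ppm, -1.26, -1.14 and -0.55 at 2500 ppm, and -1.41, -0.84 and -1.48 at 5000 ppm. Every 20 ppm mouse lay below every control mouse, a separation in this direction that 4.35% of all genes showed, and at each higher dose the groups overlapped. The difference was -0.44 ± 0.23 (SE, log2) at 20 ppm with a 95% interval of -0.94 to 0.06 (limma adjusted p = 1.0), and -0.29 ± 0.23 at 5000 ppm with an interval of -0.78 to 0.21. Leaving out 1 array moved the latter, to -0.49 when 5000 ppm mouse 2 was omitted, to -0.17 when mouse 3 was and to -0.45 when control mouse 1 was. At 2500 ppm it was -0.02. Its second probe, at -5.08 to -2.33, also had its lowest mean at 20 ppm (-4.87 ± 0.19 SD, against -4.07 ± 1.11 in control, n = 3 each), but it was well above background in only 1 of the 3 mice there.

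Nr1i2 (PXR) was well above background on all 15 arrays but varied widely between mice of 1 diet. Its log2 values were -3.51, -4.64 and -4.39 in control, -4.22, -3.69 and -3.88 at 20 ppm, and -4.12, -3.84 and -2.69 at 500 ppm. They were -4.10, -4.15 and -3.28 at 2500 ppm and -4.24, -3.50 and -4.27 at 5000 ppm. Every exposed diet overlapped control, and the highest values of the series were in 500 ppm mouse 3 and 2500 ppm mouse 3, both among the arrays that stood apart. The means of the diets spanned 0.63, against a pooled SD within diets of 0.53. At 500 ppm the difference was 0.63 ± 0.40 (SE, 95% interval -0.25 to 1.5), and within slide 1, which leaves out mouse 3, it was 0.20. At 5000 ppm it was 0.18 ± 0.40 (interval -0.70 to 1.05), and each of the 6 mice compared moved it by over 1.5 times, from -0.08 without 5000 ppm mouse 2 to 0.51 without control mouse 1.

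The retinoid X receptors, the partners of most other receptors here, had narrow ranges. Rxrb (RXR-beta) read 3.59, 4.03 and 4.07 in control and 4.28, 4.12 and 4.20 at 5000 ppm, with 3.58 to 4.18 at 20 ppm, 4.04 to 4.08 at 500 ppm and 3.85 to 4.08 at 2500 ppm. Its 3 mice at 5000 ppm lay above all control and all 2500 ppm mice, as did 12.9% and 8.15% of all genes in the same comparisons. The difference from control was 0.30 ± 0.18 (SE, 95% interval -0.09 to 0.69), and 0.14 without control mouse 1. Its 2 other probes did not share this direction: one had means of -3.33 ± 1.57 in control and -3.43 ± 0.61 at 5000 ppm, and the other had -3.62 ± 1.38 and -4.24 ± 1.19 (SD, n = 3 each). Rxra (RXR-alpha) read 3.82, 4.05 and 4.38 in control and 4.27, 4.50 and 4.16 at 5000 ppm, and all diets overlapped. Its difference at 5000 ppm was 0.23 ± 0.18 with an interval of -0.17 to 0.63, and 0.10 without control mouse 1, 0.38 without control mouse 3 and 0.13 without 5000 ppm mouse 2.

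Among the fatty acid sensors Ppara had the larger differences. Ppara, whose protein drives fatty acid oxidation and the response to fibrates, read -0.64, 0.00 and -0.25 in control and -0.20, -0.07 and 0.05 at 20 ppm. It read 0.23, -0.08 and -0.12 at 500 ppm, 0.46, -0.17 and 0.48 at 2500 ppm, and 0.05, 0.13 and 0.20 at 5000 ppm. All 5000 ppm mice lay above all control mice, as did 12.9% of all genes. At 2500 ppm mice 1 and 3 were the highest of the series while mouse 2 lay within the control range. The difference was 0.55 ± 0.21 (SE, log2, 95% interval 0.10 to 1.0, a fold of 1.47) at 2500 ppm, with a limma p of 0.0197 before and 0.441 after adjustment, and 0.42 ± 0.21 (interval -0.03 to 0.87, adjusted p = 0.964) at 5000 ppm. Control mouse 1 carried part of this, since without it the values were 0.38 and 0.25. On the trend its slope was 0.12 per dose rank (limma adjusted p = 0.487). Its second probe differed by 0.28 at 2500 ppm and by 0.20 (interval -0.21 to 0.61) at 5000 ppm, and on that probe the 5000 ppm mice, at -1.72, -1.35 and -1.54, overlapped the control mice at -1.86, -1.52 and -1.83.

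Ppara is also active in heart muscle and fat, whose genes were present in these lungs at very uneven levels. The summed signal of 6 cardiac muscle markers, in units of the array's 75th percentile, ran from 7.78 to 55.2 in control, from 3.40 to 117 at 2500 ppm and from 25.6 to 109 at 5000 ppm. That of the 8 measured adipocyte markers of 9 ran from 6.56 to 24.8, from 7.17 to 74.0 and from 6.12 to 123, and Adipoq was well above background on 14 arrays. Across the 15 arrays Ppara had a Spearman rank correlation of 0.12 with the cardiac sum and -0.21 with the adipocyte sum, which describes arrays that share slides and diets. Ppard, the more widely expressed relative of Ppara, read 0.53, 1.26 and 1.38 in control and 1.38, 1.39 and 1.31 at 5000 ppm. Its difference of 0.31 ± 0.23 (SE, 95% interval -0.20 to 0.81) was 0.05 without control mouse 1, the lowest array of the series for Ppard, and 0.47 without control mouse 3.

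Nr1h3 (LXR-alpha), the oxysterol receptor abundant in macrophages and liver, had the smallest p of the receptors at 5000 ppm. It read 2.91, 3.20 and 3.16 in control, 3.25, 3.49 and 3.44 at 20 ppm, and 3.28, 3.05 and 3.07 at 500 ppm. It read 3.46, 3.18 and 3.35 at 2500 ppm and 3.74, 3.63 and 3.39 at 5000 ppm. The mice at 5000 ppm and those at 20 ppm all lay above all control mice, as 12.9% and 1.5% of all genes did, while the 500 and 2500 ppm mice overlapped control. The order of the diets by mean was control (3.09 ± 0.16 SD), 500 ppm (3.14 ± 0.13), 2500 ppm (3.33 ± 0.14), 20 ppm (3.39 ± 0.13) and 5000 ppm (3.59 ± 0.18), n = 3 each, and in this order control and 500 ppm, like 2500 ppm and 20 ppm, differed by less than their SD. At 5000 ppm the difference was 0.50 ± 0.15 (SE, log2, 95% interval 0.17 to 0.83, a fold of 1.41), with a limma p of 0.00578 before and 0.70 after adjustment, and 0.814% of all genes had a smaller p. At 20 ppm it was 0.30 ± 0.15 (interval -0.02 to 0.63), at 2500 ppm 0.24 ± 0.15 (0.15 without control mouse 1) and for 5000 against 2500 ppm, both on slide 2, 0.26 ± 0.15. Leaving out each array in turn moved the 5000 ppm value between 0.41 and 0.60, with adjusted p from 0.505 to 1.0.

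The second Nr1h3 probe had the same direction. It read 0.08 and 0.49 in control mice 2 and 3 (the spot of mouse 1 was marked as an outlier by the software and dropped, so the fit used 14 of the 15 arrays), 0.73, 0.86 and 0.41 at 20 ppm, 0.90, 0.85 and 0.87 at 500 ppm, 1.1, 1.11 and 0.11 at 2500 ppm, and 1.03, 1.0 and 1.33 at 5000 ppm. The 5000 ppm mice lay above both control mice, and the difference was 0.83 (log2, 95% interval 0.21 to 1.46). The 10 markers of macrophages other than alveolar ones and of monocytes, all well above background on 15 arrays, summed to 229 to 283 in control and 285 to 344 at 5000 ppm, which do not overlap. At 20 ppm, where Nr1h3 also lay above control, these markers summed to 199 to 371, which overlaps control. The sums at 500 ppm (250 to 291) and 2500 ppm (237 to 272) overlapped control too. The 10 alveolar macrophage markers summed to 354 to 563 in control, 258 to 427 at 20 ppm and 277 to 472 at 5000 ppm. Across arrays Nr1h3 had a Spearman correlation of 0.49 (15 arrays) and 0.40 (the 11 that did not stand apart) with the former sum and of -0.08 and -0.28 with the latter, as a description of arrays that share slides and diets. In whole lung, more cells of a type and more RNA per cell cannot be told apart, and beyond these values the part of macrophage number in Nr1h3 was not tested. Nr1h2 (LXR-beta), the LXR found in most cell types, read 3.72, 4.05 and 4.05 in control and 4.23, 4.12 and 4.29 at 5000 ppm. Its 5000 ppm mice lay above all control mice, as did 12.9% of all genes. The difference was 0.28 ± 0.17 (SE, 95% interval -0.10 to 0.65), and 0.17 without control mouse 1. Its second probe, at -1.37 to -0.65 over the series, overlapped.

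**Figure D2:**
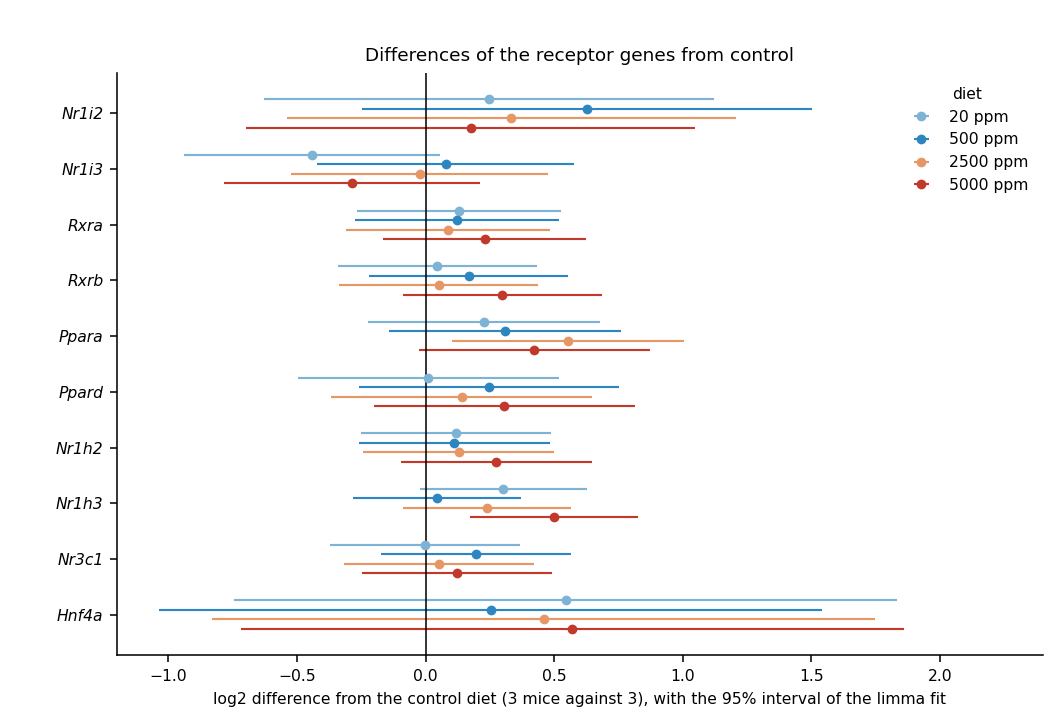
Difference of each of the 10 receptor genes from control at 20, 500, 2500 and 5000 ppm (log2, horizontal axis), with limma's 95% interval as the bar and a line at 0. The interval leaves out 0 for Ppara at 2500 ppm (0.10 to 1.0) and Nr1h3 at 5000 ppm (0.17 to 0.83), and the widest bars belong to Hnf4a and Nr1i2.

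Nr3c1, the glucocorticoid receptor, had the narrowest range of the receptors over the 15 arrays. It read 4.01, 4.47 and 4.49 in control, 4.07, 4.56 and 4.34 at 20 ppm, 4.54, 4.60 and 4.43 at 500 ppm, 4.37, 4.53 and 4.24 at 2500 ppm, and 4.55, 4.37 and 4.42 at 5000 ppm. The diets overlapped, and their means spanned 0.20 against a pooled SD within diets of 0.18. The difference at 5000 ppm was 0.12 ± 0.17 (SE, 95% interval -0.25 to 0.49), and it ran from -0.04 without control mouse 1 to 0.21 without control mouse 3. Leaving out control mouse 2 (0.19) or 5000 ppm mouse 1 (0.07) also moved it by over 1.5 times. Its second probe read 3.22, 3.60 and 3.77 in control and 3.77, 3.28 and 3.31 at 5000 ppm, again overlapping.

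Hnf4a, a master regulator of liver and gut epithelium, had the widest. It read -2.88, -3.34 and -3.74 in control, -3.04, -3.51 and -1.78 at 20 ppm, -2.99, -4.31 and -1.90 at 500 ppm, -2.55, -3.81 and -2.23 at 2500 ppm, and -2.61, -2.55 and -3.09 at 5000 ppm. The pooled SD within diets, 0.80, exceeded the span of the diet means, 0.57. The difference at 5000 ppm was 0.57 ± 0.59 (SE, 95% interval -0.72 to 1.86), and 0.36 without control mouse 3. Its second probe was well above background in 1 of 3 mice in control and at 2500 ppm, and in 2 of 3 at 20 ppm. It was so in 3 of 3 at 500 and 5000 ppm, and thus passed the filter only through the diets where its mean was highest. On that probe the 5000 ppm mice (-4.22 to -3.86) lay above control (-5.52 to -4.84), with a difference of 1.08 (95% interval -0.28 to 2.44). Of all genes 12.9% lay above control there, and on this probe the separation follows in part from the filter.

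The Hnf4a values ranked the mice much as liver genes did. Alb (albumin) was highest, at 4.83 on the same log2 scale, in 20 ppm mouse 3, where Hnf4a was highest too, and lowest, at -0.48, in 500 ppm mouse 2, where Hnf4a was lowest. The Spearman correlation of Hnf4a with the summed signal of 10 hepatocyte markers was 0.76 over 15 arrays and 0.96 over the 11 arrays that did not stand apart, as a description of arrays that share slides and diets. The sum ran from 17.6 to 55.6 in control, 27.8 to 93.9 at 20 ppm, 14.5 to 40.8 at 500 ppm, 15.6 to 62.8 at 2500 ppm and 22.0 to 46.2 at 5000 ppm, and all 10 markers were well above background on all arrays. The source of the liver genes was not tested. For Nr1i2 and Nr1i3, receptors best known from liver, the same correlation over 15 arrays was 0.23 and -0.29.

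**Figure D3:**
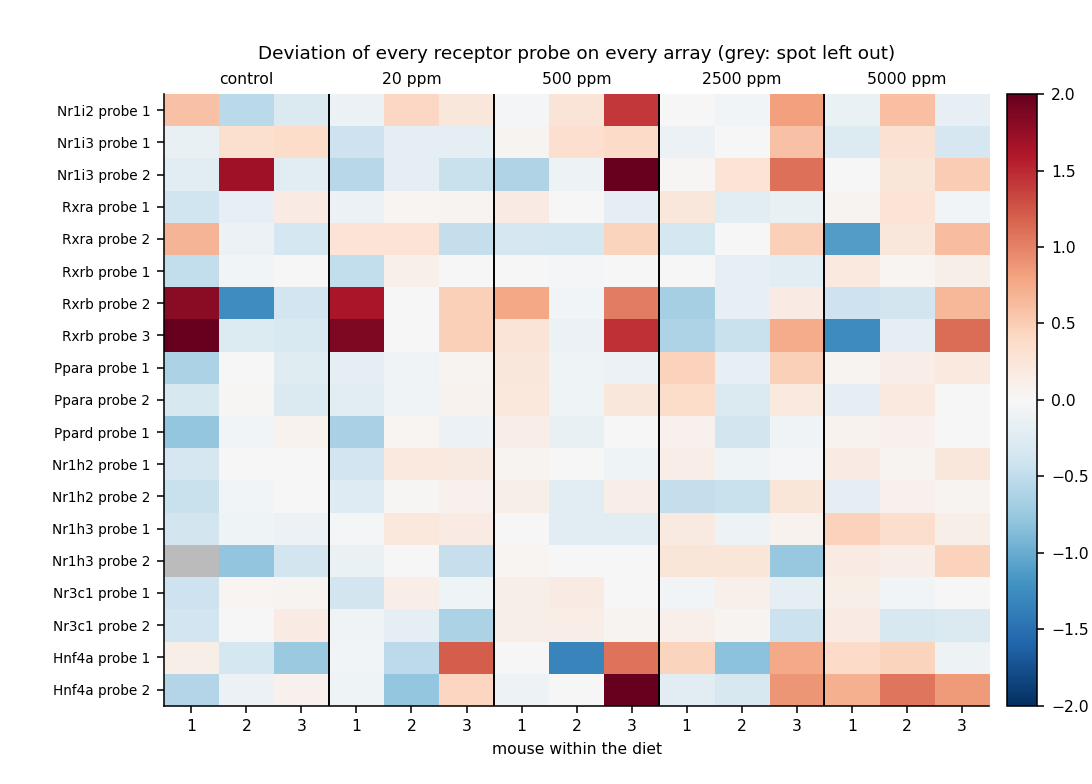
Deviation of each of the 19 receptor probes (rows) from its own median over the arrays (colour, log2, cut at both ends), on the 15 arrays in order of diet (columns). Control mouse 1 is low for most of the receptors, Hnf4a moves by mouse within every diet, and the control mouse 1 cell of the second Nr1h3 probe is empty.

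On the 4 arrays that stood apart, receptors lay outside the range of the other 11 arrays, as many other genes did. Control mouse 1 was below all of the 11 other arrays that did not stand apart for 7 of the 10 receptors, against 34.3% of all genes, and 20 ppm mouse 1 was for 5 of 10, against 37.7%. This is counted on the probe used for each gene: the second probe of Rxra and both other probes of Rxrb lay above the 11 arrays in control mouse 1. Ppard read 0.53 and 0.66 in these mice against 0.95 to 1.44 in the 11, and Nr3c1 read 4.01 and 4.07 against 4.34 to 4.60. In 500 ppm mouse 3 the receptors Nr1i2 and Nr1i3 lay above the 11 (2 of 10, against 35.6% of all genes), and in 2500 ppm mouse 3 Nr1i2, Nr1i3 and Ppara did (3 of 10, against 28.3%), while Rxrb and Nr3c1 lay below (2 of 10, against 14.8%). Nr1i2 read -2.69 and -3.28 in them against -4.64 to -3.50 in the 11. The direction of several receptors rested on control mouse 1. At 5000 ppm 9 of 10 were higher than control, with a median of 0.29 against 0.07 over all genes, of which 60.6% were higher, and without control mouse 1 it was 8 of 10 with a median of 0.16 against 0.02. At 2500 ppm 9 of 10 with a median of 0.14 (all genes 0.05) became 5 of 10 with a median of -0.01 when it was left out, and the median was 0.23 without control mouse 3 and 0.22 without 2500 ppm mouse 2.

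The same counts at the lower doses moved with control mouse 1 and with scaling. At 500 ppm, 10 of 10 receptors were higher than control with a median of 0.18, beside 70.4% of all genes and a median of 0.12 for them. Scaling each array to its median instead shifted the median of all genes to -0.11 and left 4 of 10 receptors above control with a median of -0.05, slightly above all genes under either scale. Without control mouse 1 it was 6 of 10 with a median of 0.007, below that of all genes (0.04). At 20 ppm 8 of 10 were higher with a median of 0.13 (all genes -0.03, 44.4% higher), and 6 of 10 without control mouse 1 (median 0.006), 20 ppm mouse 2 (0.06) or 20 ppm mouse 3 (0.04), while leaving out 20 ppm mouse 1 gave 9 of 10 (0.26). For 5000 against 2500 ppm it was 7 of 10 with a median of 0.13 (all genes 0.03, 55.3% higher), which ran from 0.05 without 2500 ppm mouse 2 to 0.24 without 2500 ppm mouse 1 (0.08 without 5000 ppm mouse 2).

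Where slides allowed a comparison of exposed mice with control within 1 slide, 9 of 10 receptors kept their direction. Against control, the 500 ppm mice of slide 1 differed by 0.38 for Ppara, 0.24 for Nr3c1 and Ppard, 0.22 for Rxra, 0.16 for Rxrb, 0.15 for Nr1h2, 0.08 for Nr1h3 and 0.01 for Nr1i3. Only Hnf4a took the other sign (-0.33, against 0.25 with mouse 3). No slide held both control and 2500 or 5000 ppm mice. With slide as a fixed block, which then rests on 500 ppm mouse 3, the 5000 ppm difference of Nr1i2 became -1.12 and that of Hnf4a -1.18, while those of Nr1h3 (0.59) and Ppara (0.63) kept their direction, and no receptor passed the threshold.

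Probes of 1 gene did not always move together. The 9 receptor probes not used for a gene had the sign of the used probe in 8 of 9 cases at 20 ppm and at 500 ppm, in 3 of 9 at 2500 ppm and in 5 of 9 at 5000 ppm.

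Of the genes that CAR and PXR switch on in liver, 1 of 30 measured passed the threshold at 5000 ppm, beside 0.0407% of all genes, and it was higher there. On the trend 2 of 30 passed, both higher, beside 0.142% of all genes. In the list of CAR and PXR targets 30 of 35 genes were measured, and 22 were higher than control at 5000 ppm, beside 60.6% of all genes. The median difference was 0.30 against 0.07 for all genes (0.20 without 5000 ppm mouse 2). In limma 8 of the 30 had an unadjusted p under 0.05 at 5000 ppm, beside 5.14% of all genes. At 2500 ppm 6 did (8.49%), on the trend 10 did (9.22%), and at 20 and 500 ppm 0 did. Gsta2, a glutathione transferase, rose from -0.42, -0.41 and -0.35 in control to 1.79, 2.17 and 2.54 at 5000 ppm, a difference of 2.56 ± 0.21 (SE, limma adjusted p = 0.000315). Gstm1, another glutathione transferase, rose on the trend by 0.26 per dose rank (limma adjusted p = 0.0258) and differed by 0.99 ± 0.18 at 5000 ppm (adjusted p = 0.141). Its trend call was lost when any control or 5000 ppm mouse, 20 ppm mouse 2 or 2500 ppm mouse 1 was left out, 8 of 15 arrays in all (adjusted p up to 0.128), whereas that of Gsta2 was kept in all 15 cases. Both genes also belong to the oxidative stress response. The cytochrome P450 genes reported here as readouts of CAR and PXR did not pass. Cyp3a11 was measured among the hepatocyte markers, of which 0 of 10 passed at 5000 ppm, and its own value is not given here. Cyp2b10 differed by 0.43 ± 0.24 (0.22 without control mouse 1) and Cyp3a13 by 0.32 ± 0.42. For Cyp2b10 the 5000 ppm mice (6.89 to 7.12) lay just above control (6.20 to 6.88), as 12.9% of all genes lay above. Cyp2c55 differed by -0.91 ± 0.50, but it was well above background in only 1 of 3 mice at 5000 ppm, and with another background correction (normexp) the difference was 0.08. Por, which passes electrons to these enzymes, differed by 0.30 ± 0.21, and the drug pump Abcb1a by -0.22 ± 0.20. The 5000 ppm mice lay above control for Por (5.96 to 6.07 against 5.39 to 5.88), as did 12.9% of all genes, and overlapped control for Abcb1a. In the same samples the 7 club cell markers, from cells rich in cytochromes P450, summed to 2240 to 2620 in control and 2940 to 3300 at 5000 ppm, and their part in these values was not tested.

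The targets of the lipid sensors passed in no comparison. Of 34 measured PPAR targets (of 35) 0 passed in either direction in limma, and 3 had an unadjusted p under 0.05 at 5000 ppm (5.14% of all genes did). There 22 were higher than control and the median was 0.09, beside 60.6% of all genes and their median of 0.07. Leaving out 1 array gave 17 higher and a median of 0.03 (control mouse 1) or -0.001 (5000 ppm mouse 2), and 25 and 0.16 (control mouse 3). Pdk4, which turns cells from glucose to fat oxidation, differed by 0.88 ± 0.45 (SE), and by 0.53 without control mouse 1. Its 5000 ppm mice (0.70 to 1.24) lay above control (-0.67 to 0.46), as did 12.9% of all genes. Cpt1a, which brings fatty acids into mitochondria, differed by -0.25 ± 0.17. All its 5000 ppm mice (3.01 to 3.04) lay below control (3.06 to 3.46), as did 4.99% of all genes. The lipid droplet gene Plin2 (-0.11 ± 0.19), the lipase inhibitor Angptl4 (0.37 ± 0.30) and the fatty acid hydroxylase Cyp4a12a (0.97 ± 1.47, well above background in 2 of 3 control mice) overlapped control. Of 21 measured LXR targets (of 22) 0 passed, 0 had an unadjusted p under 0.05 at 5000 ppm and 17 were higher, beside 60.6% of all genes. The median was 0.13 (all genes 0.07), which became 0.08 when 5000 ppm mouse 1 was left out and 0.30 when mouse 3 was. Srebf1, the lipogenic factor that LXR induces, differed by 0.40 ± 0.21. Its 5000 ppm mice (3.66 to 3.94) lay above control (3.16 to 3.58), as did 12.9% of all genes. The cholesterol pumps Abca1 (0.32 ± 0.23) and Abcg1 (0.27 ± 0.31), the desaturase Scd1 (0.10 ± 0.33), the LDL receptor degrader Mylip (0.13 ± 0.16) and the engulfment receptor Mertk (-0.63 ± 0.36) overlapped control.

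**Figure D4:**
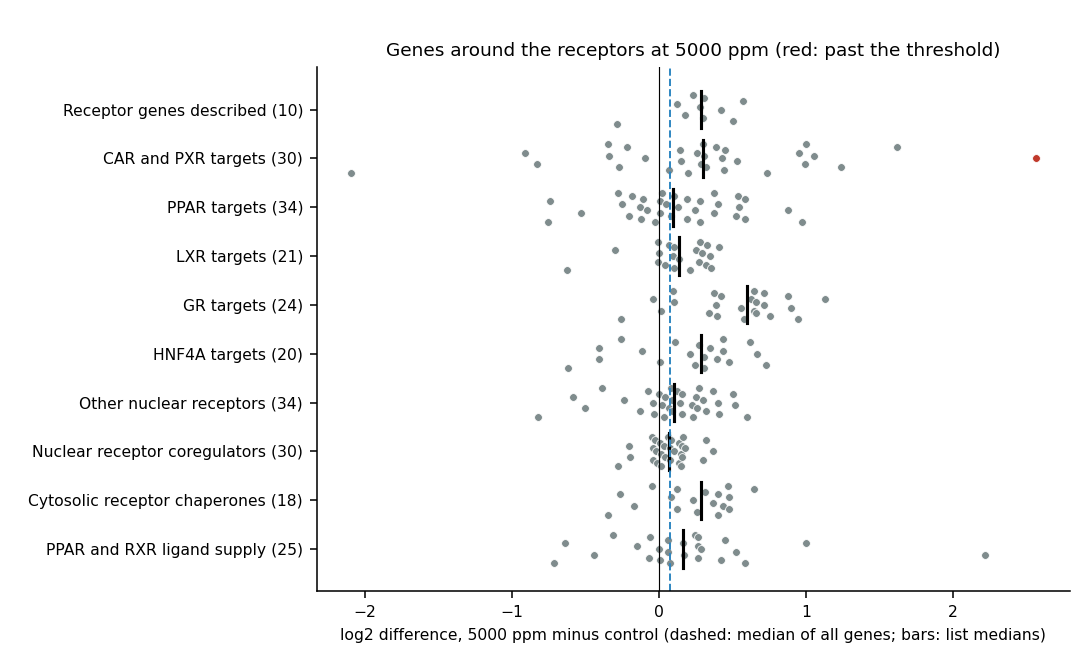
Difference between 5000 ppm and control (log2, horizontal axis) for every measured gene of the 10 receptors and of 9 gene lists around them (rows), with 1 point a gene, a bar for the list's median and a line for the median of all genes (0.07). The GR targets have the median farthest from that line, at 0.60, and the filled point far to the right in the CAR and PXR row is Gsta2.

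The targets of the glucocorticoid receptor had the largest median difference of the lists at 5000 ppm. Of 24 targets 0 passed in limma in any comparison, with 5 at an unadjusted p under 0.05 at 5000 ppm (5.14% of all genes). The numbers above control were 22 at 20 ppm, 21 at 500 ppm, 20 at 2500 ppm and 22 at 5000 ppm, with medians of 0.45, 0.36, 0.46 and 0.60, all against the same 3 control arrays. Of all genes 44.4%, 70.4%, 57.3% and 60.6% were higher at these doses, with medians of -0.03, 0.12, 0.05 and 0.07. For 5000 against 2500 ppm 12 of 24 were higher and the median was 0.01, which ran from -0.26 without 2500 ppm mouse 2 to 0.22 without 2500 ppm mouse 1. Leaving out control mouse 1 gave medians of 0.19 at 500 ppm, 0.30 at 2500 ppm and 0.46 at 5000 ppm (20 of 24 higher). At 20 ppm it was 0.26 when 20 ppm mouse 3 was left out and 0.71 when mouse 1 was. It was also 0.22 at 500 ppm without 500 ppm mouse 2, and 0.30 at 2500 ppm without 2500 ppm mouse 1. Fkbp5, a chaperone that restrains the receptor, differed by 0.65 ± 0.33 (SE) at 5000 ppm, the leucine zipper gene Tsc22d3 by 0.71 ± 0.33, the clock gene Per1 by 0.94 ± 0.49 (0.45 without control mouse 1, 1.47 without control mouse 2), and Hif3a by 1.13 ± 0.42 (limma adjusted p = 0.888).

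Of the HNF4A targets, 20 were measured (of 24), 0 passed in limma and 0 had an unadjusted p under 0.05 at 5000 ppm. There 15 were higher than control, beside 60.6% of all genes. The median of 0.29 (all genes 0.07) ran from -0.08 without control mouse 3 to 0.62 without control mouse 1 (0.13 without 5000 ppm mouse 1). Apob, the protein of lipoprotein particles, differed by 0.73 ± 0.53 (SE).

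The machinery around the receptors gave no call. Of 34 measured other nuclear receptors (of 39), 30 coregulators (of 30), 18 cytosolic chaperones (of 18) and 25 genes of ligand supply (of 29), 0 passed in limma in any comparison. At 5000 ppm the counts at an unadjusted p under 0.05 were 1, 0, 5 and 2, beside 5.14% of all genes. Of all genes 60.6% were higher than control there, with a median of 0.07. The other nuclear receptors had 24 of 34 higher at 5000 ppm and a median of 0.10, against 18 and 0.02 without control mouse 1 and 0.18 without control mouse 3. Among them Rxrg differed by 0.50 ± 0.30 (SE), Pparg, the PPAR of fat cells and alveolar macrophages, by 0.30 ± 0.18, Nr4a3 by 0.59 ± 0.41, the clock repressor Nr1d1 by -0.83 ± 0.66 (well above background in 2 of 3 mice at 5000 ppm), and Vdr, Rara, Thra and Nr0b2 by -0.13, 0.04, -0.03 and 0.07. The coregulators had 21 of 30 higher and a median of 0.07, equal to that of all genes, against 11 and -0.06 without control mouse 1, 26 and 0.14 without control mouse 3, and 0.04 without 5000 ppm mouse 2. They include the corepressor Ncor1 at 0.17, the coactivators Ncoa1 and Ppargc1a at -0.02 and 0.30, and Tle1 and Prmt1 at 0.36 and 0.32.

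The chaperones that hold receptors in the cytosol had 14 of 18 genes higher at 5000 ppm, beside 60.6% of all genes. Their median was 0.28 (0.18 without control mouse 1), and that of all genes 0.07. Hsp90ab1, a constitutive heat shock protein, differed by 0.40 ± 0.18 (SE). Fkbp4, which helps the receptor travel to the nucleus, differed by 0.47 ± 0.17 (limma adjusted p = 0.888), and Dnajc7, which retains CAR in the cytosol, by 0.23 ± 0.29. The 5000 ppm mice lay above all control mice for Hsp90ab1 and Fkbp4, as 12.9% of all genes did, and overlapped control for Dnajc7. In ligand supply 18 of 25 were higher (60.6% of all genes) and the median was 0.16, with 0.08 without control mouse 2 and 0.25 without control mouse 3. Cyp26b1, which breaks down retinoic acid, differed by 2.21 ± 0.83, with 1.03 to 1.65 in control and 2.61 to 4.50 at 5000 ppm (limma adjusted p = 0.899). Aldh1a1, which makes retinoic acid, differed by 1.0 ± 0.22, with 6.75 to 7.17 in control and 7.85 to 8.13 at 5000 ppm (limma adjusted p = 0.298). For both genes the 5000 ppm mice lay above all control mice, as 12.9% of all genes did, but neither passed the threshold. Both were named because their differences at 5000 ppm were the largest of their list, so this separation follows in part from the choice. Fkbp4, Hif3a, Tle1, Prmt1, Mertk, Cyp4a12a, Nr1d1 and Nr4a3 were named by the same rule. The size of their differences there, and any separation, follows in part from the choice too. Some genes, such as Fkbp5, Pdk4, Angptl4 and Aldh1a1, are in more than 1 list. Of the 41 genes named from the lists, 30 moved by over 1.5 times at 5000 ppm when some 1 array was left out, 24 of them without control mouse 1.

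For each receptor the named genes whose log2 values ranked the 15 arrays most alike are given as a description, since arrays share slides, diets and the 4 arrays that stood apart. Nr1h3 was most like Lox, an enzyme that crosslinks collagen (Spearman 0.907 over 15 arrays, 0.936 over the 11 that did not stand apart), and Nmur2 (0.904 and 0.836). Hnf4a was most like C9, a complement protein made in liver (0.954 and 0.964), and Cyp4f14 (0.943 and 0.945). Ppara was most like Ctdspl (0.886 and 0.836) and Fbxo31 (0.879 and 0.782). Nr1i2 was most like Klk5 (0.907 and 0.855) and Dlgap1 (0.893 and 0.836), and Nr1i3 like Cby2 (0.907 and 0.855) and Prr3 (0.90 and 0.864). The other receptors were most like genes with values of up to 0.968: Rxra with St3gal2 (0.968), Rxrb with Mocos (0.964), Nr1h2 with Snx3 (0.957), Ppard with Tead3 (0.95) and Nr3c1 with Zmym1 (0.882). The highest of 19289 named genes will be high for any gene on so few arrays.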

How the data were processed

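Lungs of 15 mice were measured on 1-colour arrays. Per the file headers, the authors' scans went through Feature Extraction 10.7.3.1 (Agilent). Per the file headers, the deposited intensity values are the processed signal, on a linear scale and background-subtracted by that software. The deposited table holds log2 values, which differed from log2 of the processed signal by 1 constant per array. Here spots marked as outliers were left out, replicate spots averaged, and each array's 75th percentile was set to 0. A probe stayed in when the 3 arrays of some diet all had it well above background (50% of its spots or more), which left 43154. Probes were named through a GRCm38.p6 RefSeq table (21930 have no symbol there). Headers of slide 1 give mm9, and no probe coordinates were used. For each symbol the brightest probe on average was used. Diets were compared with limma 3.58.1 (R 4.3.3), 1 coefficient per diet over 15 arrays, 10 residual degrees of freedom, Benjamini-Hochberg adjustment over 34401 genes, two-sided. The number of arrays limits the precision. The tests were checked on simulated data.

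The members and lists were chosen with earlier results of these data known. Named genes are the 10 receptors, 31 genes named in every case, and from each list up to 4 members past the threshold or, where none passed, the 2 with the largest difference at 5000 ppm. Of these, 3 genes are not reported here. Alternatives were normexp correction on median signals (offset 50), quantile and array median scaling, the deposited values, other filters and probe rules, slide and replicate blocks, fewer groups and arrays left out. Like-numbered arrays deviated together between control and 20 ppm (r 0.165 to 0.611) and between 500 and 2500 ppm (0.289 to 0.475), but not for every number in the other pairs of diets. Some unlike numbers did so as well. The r was 0.373 for control mouse 2 with 20 ppm mouse 3 and 0.375 for control mouse 3 with 20 ppm mouse 2. It was 0.25 for 500 ppm mouse 1 with 2500 ppm mouse 2. Unlike pairs holding an array that stood apart were negative (-0.468 to -0.38 and -0.436 to -0.33). A pairing by number was therefore not shown.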

Additional observations from a re-analysis of the deposited data

How the results depend on the processing

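No receptor passed the threshold in any comparison under any alternative that was run, and the lowest adjusted p of a receptor (limma) was 0.218, for Nr1i2 on the trend with slide as a fixed block. At 5000 ppm Nr1h3, Ppara, Rxra, Ppard, Nr1h2 and Nr1i3 kept their direction under all of them. Of 890 receptor values under an alternative other than leaving out 1 array 47 changed sign, as did 14 of the other named genes' 612, all without a call, and the cause was not tested. Both totals include alternatives that keep the estimate the same or nearly so by design. These are the deposited values, other filters, single probes, outlier spots kept, the replicate block (0 of 60 receptor values each) and only the groups compared (0 of 50). Receptor signs changed most without control and 20 ppm mouse 1 (11 of 60). With slide as a fixed block and with arrays scaled to their median it was 7 of 60 each.

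With slide as a fixed block the values were at 500 ppm -0.33 for Hnf4a, at 2500 ppm -0.96 for Nr1i2 and -1.29 for Hnf4a, at 5000 ppm -1.12 for Nr1i2, -1.18 for Hnf4a, 0.23 for Thra and -2.67 for Nr0b2, and on the trend -0.34 for Nr1i2 and -0.42 for Hnf4a. Gstm1 passed at 5000 ppm in that fit (1.1, limma adjusted p 0.046), but its trend call was lost with slide as a fixed (limma adjusted p 0.051) or random block (0.644), with arrays scaled to their median (0.366), without a filter (0.055), with the mean of its probes (0.637) and without control and 20 ppm mouse 1 (0.102). With slide as a random block they were at 2500 ppm -0.081 for Nr1i2 and -0.10 for Hnf4a, at 5000 ppm -0.24 for Nr1i2, 0.052 for Thra and -0.81 for Nr0b2, and on the trend -0.081 for Nr1i2 and -0.064 for Hnf4a. Without control and 20 ppm mouse 1 they were at 20 ppm -0.048 for Ppard, at 500 ppm -0.086 for Nr1i3, -0.0066 for Rxra, -0.014 for Ppard and -0.046 for Nr1h3, at 2500 ppm -0.043 for Rxra, -0.10 for Rxrb, -0.12 for Ppard and -0.10 for Nr3c1, at 5000 ppm -0.035 for Nr3c1, -0.006 for Angptl4, -0.14 for Rara, -0.0079 for Nr0b2 and -0.0043 for Ncor1, and on the trend -0.014 for Nr3c1. Without 500 and 2500 ppm mouse 3 they were -0.33 for Hnf4a at 500 ppm, and 0.12 for Nr1i2 and -0.0015 for Nr3c1 for 5000 against 2500 ppm.

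When arrays were scaled to their median the values were at 20 ppm 0.016 for Nr3c1 and at 500 ppm -0.15 for Nr1i3, -0.11 for Rxra, -0.063 for Rxrb, -0.12 for Nr1h2, -0.19 for Nr1h3 and -0.034 for Nr3c1. With quantile normalization they were 0.013 for Nr3c1 at 20 ppm, 0.018 for Nr1i3 at 2500 ppm, at 5000 ppm -0.023 for Nr3c1, -0.049 for Scd1 and -0.089 for Rara, -0.050 for Nr3c1 for 5000 against 2500 ppm and -0.0034 for it on the trend. With normexp they were -0.028 for Ppard at 20 ppm, at 5000 ppm 0.078 for Cyp2c55 and -0.050 for Rara, 0.034 for Nr1i2 for 5000 against 2500 ppm and 0.0026 for Nr1i3 on the trend. With the mean of a gene's probes they were -0.019 for Rxra at 500 ppm, 0.017 for Nr1i3 and -0.28 for Rxrb at 2500 ppm, at 5000 ppm -0.14 for Rxrb, -0.0039 for Cyp2b10 and -0.059 for Ncor1, and 0.019 for Nr1i3 and -0.088 for Rxrb on the trend.

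As each array was left out in turn, sign changes gave these ranges. For Nr1i2 they were -0.079 to 0.51 at 5000 ppm, -0.41 to 0.12 for 5000 against 2500 ppm and -0.007 to 0.11 on the trend, and for Nr1i3 -0.086 to 0.18 at 500 ppm, -0.24 to 0.12 at 2500 ppm and -0.056 to 0.0082 on the trend. For Rxra they were -0.0066 to 0.27 at 500 ppm and -0.054 to 0.23 at 2500 ppm, for Rxrb -0.11 to 0.23 at 20 ppm and -0.10 to 0.14 at 2500 ppm, for Ppard -0.25 to 0.21, -0.014 to 0.41 and -0.12 to 0.30 at 20, 500 and 2500 ppm, and for Nr1h3 -0.046 to 0.10 at 500 ppm. For Nr3c1 they were -0.16 to 0.13, -0.10 to 0.14 and -0.035 to 0.21 at 20, 2500 and 5000 ppm, -0.0015 to 0.14 for 5000 against 2500 ppm and -0.0018 to 0.047 on the trend, and for Hnf4a -0.33 to 0.87 at 500 ppm and -0.36 to 0.43 for 5000 against 2500 ppm. Of the other genes at 5000 ppm, Cyp3a13 ran from -0.021 to 0.71, Angptl4 from -0.006 to 0.59, Scd1 from -0.22 to 0.37, Vdr from -0.34 to 0.0005, Rara from -0.14 to 0.23, Thra from -0.19 to 0.10, Nr0b2 from -0.034 to 0.23, Ncor1 from -0.0043 to 0.28, Ncoa1 from -0.11 to 0.042 and Cyp4a12a from -0.42 to 1.76.

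Over all genes the number past the threshold moved more. With slide as a fixed block it was 5055 at 2500 ppm, 4952 at 5000 ppm, 5494 on the trend and 2851 for any diet. In that fit the slide term rests on 500 ppm mouse 3, 1 of the arrays that stood apart, against the other mice of its diet. With slide as a random block it was 5 at 5000 ppm, 5 on the trend and 4 for any diet. With arrays scaled to their median it was 4 at 500 ppm, 5 at 2500 ppm and 9 at 5000 ppm, with normexp 1 at 2500 ppm and 1 for 5000 against 2500 ppm, without a filter 30 on the trend and 5 for any diet, and with only the groups compared 4 at 2500 ppm and 9 at 5000 ppm. With the replicate block it was 1 at 2500 ppm, 1 for 5000 against 2500 ppm and 7 for any diet. That block treats like-numbered mice as paired, a pairing that was not shown, and it changed no call of a receptor. Without control and 20 ppm mouse 1 it was 7 at 20 ppm, 6 at 5000 ppm, 14 on the trend and 7 for any diet, and without 500 and 2500 ppm mouse 3 it was 126 at 2500 ppm, 33 at 5000 ppm, 11 for 5000 against 2500 ppm, 127 on the trend and 47 for any diet. As single arrays were left out it ran from 0 to 1 at 500 ppm, 0 to 46 at 2500 ppm (highest without 2500 ppm mouse 3), 5 to 20 at 5000 ppm, 0 to 9 for 5000 against 2500 ppm, 14 to 76 on the trend (lowest without control mouse 1) and 5 to 23 for any diet. Keeping spots marked as outliers, chosen after seeing the data, changed no direction of a receptor. Among the receptors, Hnf4a and Nr1i2 had the widest errors.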
